A study of Mus musculus with 6 samples.

Results

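Endothelins are small peptides that are cut from larger precursors and act on cells through receptors coupled to G proteins. Of the receptors, Ednrb binds every endothelin with similar strength, whereas Ednra prefers those encoded by Edn1 and Edn2. In the embryo the pair of Edn3 and Ednrb is needed for the precursors of melanocytes and of enteric neurons, and mice that lack either gene have a white-spotted coat and an aganglionic colon. Edn1 is best known as a vasoconstrictor of endothelial cells and, in skin, as a keratinocyte product that acts on melanocytes.

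The genes described here are the receptor genes Ednrb and Ednra, the ligand genes Edn1, Edn2 and Edn3, and the converting enzyme genes Ece1 and Ece2, 7 in all, chosen by name. A value was available for 6 of the 7, among 22180 genes measured, each from 1 probe set; Ednra was not analysed here. Gene expression was measured on 1-colour Affymetrix arrays of 2 immortalised mouse melanocyte lines, 3 arrays each. One line carries Sox10 LacZ/+, an allele of the neural crest transcription factor gene Sox10 with a LacZ insertion, on an Ink4a-Arf null background, and came from pups aged 3 days. Its syngeneic control, melan-Ink4a-Arf-1, has wild-type Sox10 and the Cdkn2a tm1RDp/tm1RDp genotype; its labels also name it melan-a. By their labels both lines thus carry a disrupted Ink4a-Arf (Cdkn2a), both were backcrossed to C57BL/6J, and both were cultured with 200 nM of the phorbol ester 12-O-tetradecanoylphorbol 13-acetate and 200 pM cholera toxin. Phorbol esters activate protein kinase C, which lies below endothelin receptors as well, and cholera toxin raises cyclic AMP. Each genotype is 1 cell line, so genotype and line cannot be told apart, and nothing says that the replicates were separate cultures, so a p-value speaks of the spread among these 6 arrays and may reflect technical spread only.

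Signals are log2 values of the robust multi-array average (RMA), and array medians lay between 5.72 and 5.78. Sox10 itself read 9.70, 9.71 and 9.79 on the Sox10 LacZ/+ arrays, against 9.98, 9.80 and 9.95 on the wild-type arrays. That is a difference of -0.18 (SE 0.080) which did not pass the test (adjusted p 0.213). Cdkn2a, disrupted in both lines per the labels, read 7.16, 7.03 and 7.01 on the Sox10 LacZ/+ arrays, against 7.15, 7.04 and 7.29 on the wild-type arrays. Its signal lay above 99.3% of the olfactory receptor genes described below in the Sox10 LacZ/+ line and 99.1% in the wild type, and the labels do not say which part of the transcript is missing or measured. Of 10 melanocyte markers, 10 lay above the olfactory receptor range in both lines. Wild-type replicate 2 stood apart, as 261 genes on it lay 2-fold or more from the average of replicates 1 and 3. The same count was 22 for wild-type replicate 1, 54 for wild-type replicate 3 and at most 2 for any Sox10 LacZ/+ array.

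As the members that passed the test, Ednrb and Edn1 are shown with the 250 bases before their RefSeq start on build GRCm38.p6, because the line compared carries an altered SOX factor gene. Capitals mark the pentamers CAAAG and CAATG on either strand, the end of the SOX hexamers ACAAAG and ACAATG, which they overlap by construction. The Ednrb window is on the minus strand at chr14:103843702-103843951, inside the annotated span of the gene, which reaches 103844508. The Edn1 window is on the plus strand at chr13:42301226-42301475.
Ednrb: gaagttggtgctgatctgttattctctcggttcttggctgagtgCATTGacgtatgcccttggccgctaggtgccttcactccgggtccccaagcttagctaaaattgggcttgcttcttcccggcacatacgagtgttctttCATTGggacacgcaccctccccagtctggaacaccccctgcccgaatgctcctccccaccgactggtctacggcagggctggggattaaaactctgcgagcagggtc
Edn1: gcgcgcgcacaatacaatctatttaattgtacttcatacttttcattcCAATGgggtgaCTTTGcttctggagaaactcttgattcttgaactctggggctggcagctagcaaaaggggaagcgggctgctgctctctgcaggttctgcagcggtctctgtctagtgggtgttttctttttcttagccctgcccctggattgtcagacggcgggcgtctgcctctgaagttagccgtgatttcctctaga
Each window held 2 pentamers, which begin 206 and 107 bases before the start in Ednrb and 202 and 191 bases before it in Edn1. Of 32851 such windows in the RefSeq table, 65% held at least 1 pentamer. Neither window held a whole hexamer (0 in each), which 25.2% of all windows did. The E-box CACGTG, found in 6.02% of windows, and the E-box CATGTG, found in 12.3%, were in neither. Windows of members that did not pass held such letters too: the Edn3 window held 2 pentamers, and 1 of the 4 Ece1 windows held 2 pentamers, 1 hexamer and 1 CACGTG. These are matches of letters in a short window and say nothing about binding elsewhere.

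In the Sox10 LacZ/+ line the receptor gene Ednrb fell and the ligand gene Edn1 rose, while Edn2, Edn3, Ece1 and Ece2 did not pass the test. Ednrb was 12.8-fold lower and Edn1 2.80-fold higher. The test was limma's moderated test over all genes with Benjamini-Hochberg adjustment, and a gene passed at an adjusted p below 0.05. Of all genes 13.4% passed, 7.46% higher and 5.92% lower. Of the 6 members 1 rose and 1 fell, and the same numbers passed without wild-type replicate 2. Both also lay past 2-fold, and 3.53% of all genes both passed and differed at least 2-fold.

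**Figure D1:**
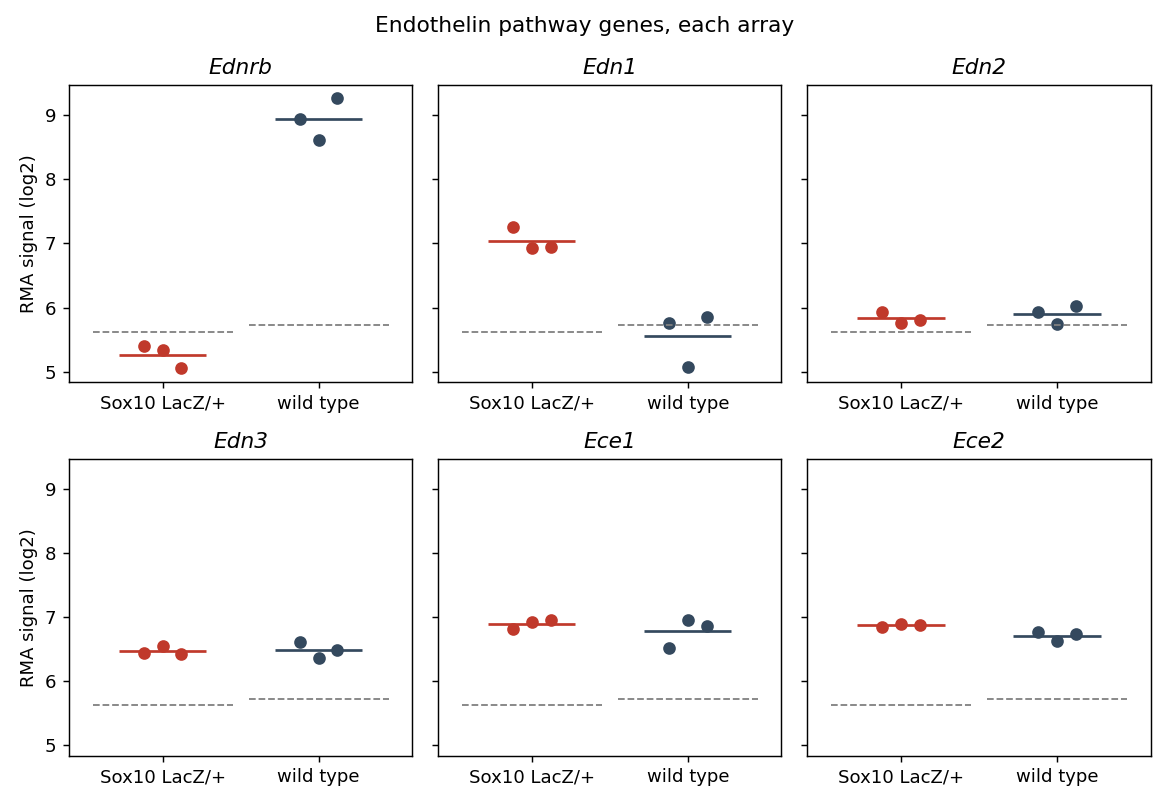
RMA signal (log2) of the 6 measured endothelin genes on each array, Sox10 LacZ/+ on the left and wild type on the right of each panel; bars are means of 3 arrays and dashed lines the 95th percentile of 1105 olfactory receptor genes in that line. The lines are far apart for Ednrb, separate in the other direction for Edn1 and close together in the remaining panels.

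Ednrb (Entrez 13618; chromosome 14, 103814615 to 103844508, GRCm38.p6) encodes the receptor that melanocyte precursors depend on. It read 5.40, 5.34 and 5.05 on the Sox10 LacZ/+ arrays, against 8.94, 8.62 and 9.26 on the wild-type arrays. Each Sox10 LacZ/+ array lay far below each wild-type array, and wild-type replicate 2 was the lowest of its line. The means were 5.26 ± 0.19 in the Sox10 LacZ/+ line and 8.94 ± 0.32 in the wild type (SD, n = 3 each), so that 7.81% of the wild-type signal was left. The log2 difference was -3.68 (SE 0.17, 95% confidence interval -4.06 to -3.29, adjusted p 3.97e-06). It was -3.84 without wild-type replicate 2. In bulk RNA, fewer cells that express a gene and less RNA per cell cannot be told apart.

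Olfactory receptor genes, which melanocytes are not generally known to use, give a view of the signal of genes that are little expressed. In the Sox10 LacZ/+ line the 1105 of them had a median of 3.58 and a 95th percentile of 5.63, and in the wild type 3.57 and 5.73. Ednrb in the Sox10 LacZ/+ line was brighter than 92.2% of them and thus inside this range, whereas in the wild type it was brighter than 100%. The size of its fold change therefore depends on the background of the array. Probe sets differ in how well they bind, so the range is a description and not a detection call.

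The ligand gene Edn1 (Entrez 13614; chromosome 13, 42301476 to 42307990) read 7.25, 6.92 and 6.95 on the Sox10 LacZ/+ arrays, against 5.76, 5.07 and 5.84 on the wild-type arrays. The lines did not overlap, and wild-type replicate 2 again gave the lowest value of its line. Means were 7.04 ± 0.18 and 5.56 ± 0.43 in the Sox10 LacZ/+ and the wild-type line (SD, n = 3 each), a log2 difference of 1.48 (SE 0.20, 95% confidence interval 1.02 to 1.95, adjusted p 0.00205). Leaving out wild-type replicate 2 gave 1.24 (SE 0.11, adjusted p 0.000335). Here the wild-type mean lay inside the olfactory receptor range, above 94% of those genes, and the Sox10 LacZ/+ mean lay above 99.3% of them.

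Edn3 (Entrez 13616; chromosome 2, 174760619 to 174784042) encodes the ligand that works with Ednrb in the developing neural crest. Its signal was 6.43, 6.54 and 6.43 on the Sox10 LacZ/+ arrays, against 6.61, 6.36 and 6.49 on the wild-type arrays. The arrays of the lines overlapped, and the log2 difference of -0.014 had a 95% confidence interval of -0.22 to 0.19 (adjusted p 0.945). With arrays centred on their medians or quantile-normalised, its sign turned (0.015 and 0.011). Edn2 (Entrez 13615; chromosome 4, 120161206 to 120167360), a ligand gene known from ovary and gut, read 5.93, 5.76 and 5.81 on Sox10 LacZ/+ arrays, against 5.93, 5.75 and 6.03 on wild-type arrays. These overlapped as well, at a difference of -0.066 (95% confidence interval -0.29 to 0.15, adjusted p 0.746). Both ligand genes lay just above or above the olfactory receptor range, Edn2 brighter than 96.2% of those genes in each line and Edn3 than 98% in the Sox10 LacZ/+ line and 97.9% in the wild type.

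The converting enzymes are membrane metalloproteases that release active endothelins from their inactive precursors, Ece2 being active at acidic pH. Ece1 (Entrez 230857; chromosome 4, 137862237 to 137965229) read 6.82, 6.92 and 6.96 on the Sox10 LacZ/+ arrays, against 6.53, 6.96 and 6.86 on the wild-type arrays. Wild-type replicate 1 was the low array, and without it the difference of 0.12 (95% confidence interval -0.16 to 0.39, adjusted p 0.623) became -0.012. Ece2 (Entrez 107522; chromosome 16, 20629851 to 20645915) read 6.85, 6.89 and 6.88 on the Sox10 LacZ/+ arrays, against 6.78, 6.62 and 6.74 on the wild-type arrays. Its lines did not overlap, yet the difference of 0.16 (95% confidence interval -0.010 to 0.33) did not pass (adjusted p 0.231). Arrays did not overlap for 3 of the 6 members, as for 31.6% of all genes. For the 4 members that did not pass, every confidence interval lay between -0.29 and 0.39 in log2 signal. These are intervals of array signal, and how they relate to RNA amounts was not tested.

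**Figure D2:**
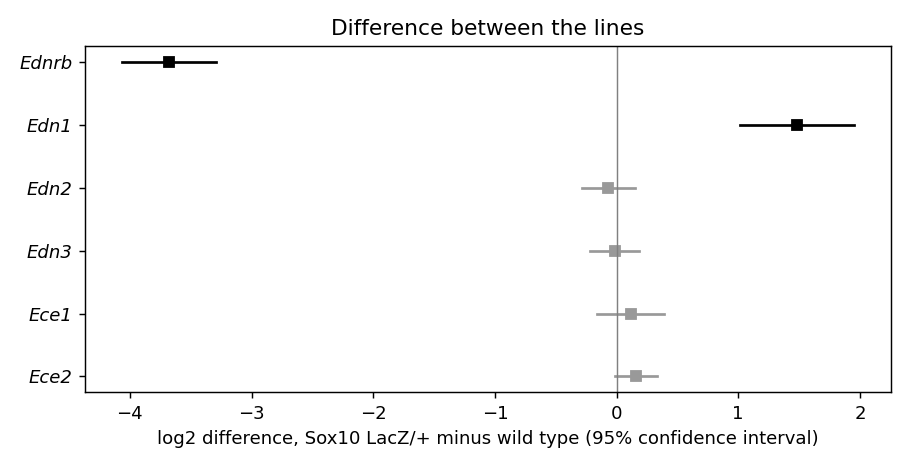
Log2 difference, Sox10 LacZ/+ minus wild type, for each measured member, with 95% confidence intervals from limma; black marks genes that passed. Ednrb (-3.68) and Edn1 (1.48) lie away from 0 in opposite directions, and the other members have intervals that span 0.

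Next came other genes whose proteins shape or remove the peptides. Of 11 measured genes for peptide processing and removal, 1 fell, 0 rose and 10 did not pass (9.09% passing against 13.4% of all genes). The median difference was -0.0076, against 0.0014 over all genes. The one that fell was Mme, which encodes neprilysin, a membrane protease that degrades endothelins among other peptides. It read 10.96, 10.81 and 10.89 on the Sox10 LacZ/+ arrays, against 11.51, 11.57 and 11.58 on the wild-type arrays (difference -0.67, SE 0.074, adjusted p 0.000633). All Sox10 LacZ/+ arrays lay below all wild-type arrays. Furin, the gene of a proprotein convertase of endothelin precursors, differed by 0.0095 (adjusted p 0.964). Pcsk6, another proprotein convertase gene, was singled out after its values were seen. It read 8.39, 8.26 and 8.36 on the Sox10 LacZ/+ arrays, against 9.53, 5.77 and 9.47 on the wild-type arrays. Its wild-type mean depends on replicate 2: the difference was 0.078 with that array and -1.17 without it (adjusted p 0.971 and 5.92e-05), and the list then had 2 lower members.

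Below the receptors, signals pass through Gq-type proteins to phospholipase C and the release of calcium by inositol trisphosphate receptors. A list of 14 measured genes covered this chain and G proteins of other types. Of the 14, 4 rose, 2 fell and 8 did not pass (42.9% passing against 13.4% of all genes, median difference 0.037). The counts were the same without wild-type replicate 2. The phospholipase C gene Plcb4 read 9.59, 9.43 and 9.45 on the Sox10 LacZ/+ arrays, against 6.53, 6.46 and 6.48 on the wild-type arrays (difference 3.00, SE 0.077, adjusted p 1.76e-07). Its relative Plcb1 rose as well, to 8.10 ± 0.099 in the Sox10 LacZ/+ line, against 5.83 ± 0.15 in the wild type (SD, n = 3 each). Plcb3, another relative, went the other way, by -0.48 (adjusted p 0.00447). The inhibitory G protein gene Gnai1 rose by 1.88 (SE 0.15, adjusted p 0.000113). Itpr3, which encodes an inositol trisphosphate receptor, read 6.77, 6.89 and 6.64 on the Sox10 LacZ/+ arrays, against 9.29, 9.33 and 9.18 on the wild-type arrays (difference -2.51, adjusted p 9.62e-07). Its relative Itpr2 rose by 0.80 (adjusted p 0.000283). Plcb4 and Itpr3 thus moved in opposite directions, and both families held genes that rose and genes that fell. With the mean of its 2 probe sets in place of the brighter one, Itpr3 differed by -1.60. Gnaq and Gna11, whose proteins couple the receptors to phospholipase C, differed by 0.20 and 0.011 (adjusted p 0.147 and 0.947).

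Among 11 measured genes that switch off receptor signalling, 2 rose, 1 fell and 8 did not pass (27.3% passing against 13.4% of all genes). The median difference was 0.0061. Rgs2, which encodes an inhibitor of Gq, read 7.48, 7.38 and 7.43 on the Sox10 LacZ/+ arrays, against 6.09, 5.40 and 6.09 on the wild-type arrays (difference 1.57, SE 0.18, adjusted p 0.000712). The receptor kinase gene Grk3, inside the olfactory receptor range in the wild type, rose by 0.69 (SE 0.080), and the arrestin gene Arrb1 had a difference of -0.77 (SE 0.071). The rise of Rgs2 was 0.91 with the mean of its 2 probe sets. Leaving out wild-type replicate 2 gave 2 higher and 2 lower members.

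Of 15 measured kinases and immediate early genes below the receptors, 1 rose, 2 fell and 12 did not pass (20% passing, median difference 0.017). The share over all genes was 13.4%. The atypical protein kinase C gene Prkcz had a difference of -1.39 (SE 0.18, adjusted p 0.00177). Prkce, a protein kinase C gene of the phorbol-responsive kind, differed by -0.45 (adjusted p 0.0236) and Braf, a kinase gene of the MAP kinase pathway, by 0.45 (adjusted p 0.0328). Calls for Prkce ended without any Sox10 LacZ/+ array or wild-type replicate 3 (adjusted p 0.00387 to 0.0935 over its alternatives), and for Braf without any array other than wild-type replicate 2 (0.00122 to 0.112). Leaving out wild-type replicate 2 gave 4 higher and 3 lower members, and with any Sox10 LacZ/+ array left out 1 passed. Jun, an immediate early gene named after its values were seen, read 10.41 to 10.44 on the Sox10 LacZ/+ arrays, against 10.09, 9.11 and 10.18 on the wild-type arrays, wild-type replicate 2 being the low one.

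Relatives of the endothelin receptors (the Gpr37 pair and the bombesin and neurotensin receptors) showed no change that passed. By limma 0 of 7 passed, against 13.4% of all genes. An unadjusted p below 0.05 was found for 0, and 0 passed with any array left out (median difference -0.0057). Of the 7, 2 lay above the olfactory receptor range in each line. The others read inside it, where a change is hard to see. Ntsr2, a neurotensin receptor gene, differed by -0.0057. Gpr37, an orphan receptor gene of glia and neurons, read 7.94, 7.80 and 7.67 on the Sox10 LacZ/+ arrays, against 7.94, 6.45 and 8.05 on the wild-type arrays. Its difference was 0.33 (adjusted p 0.676), and -0.19 without wild-type replicate 2 (adjusted p 0.248).

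**Figure D3:**
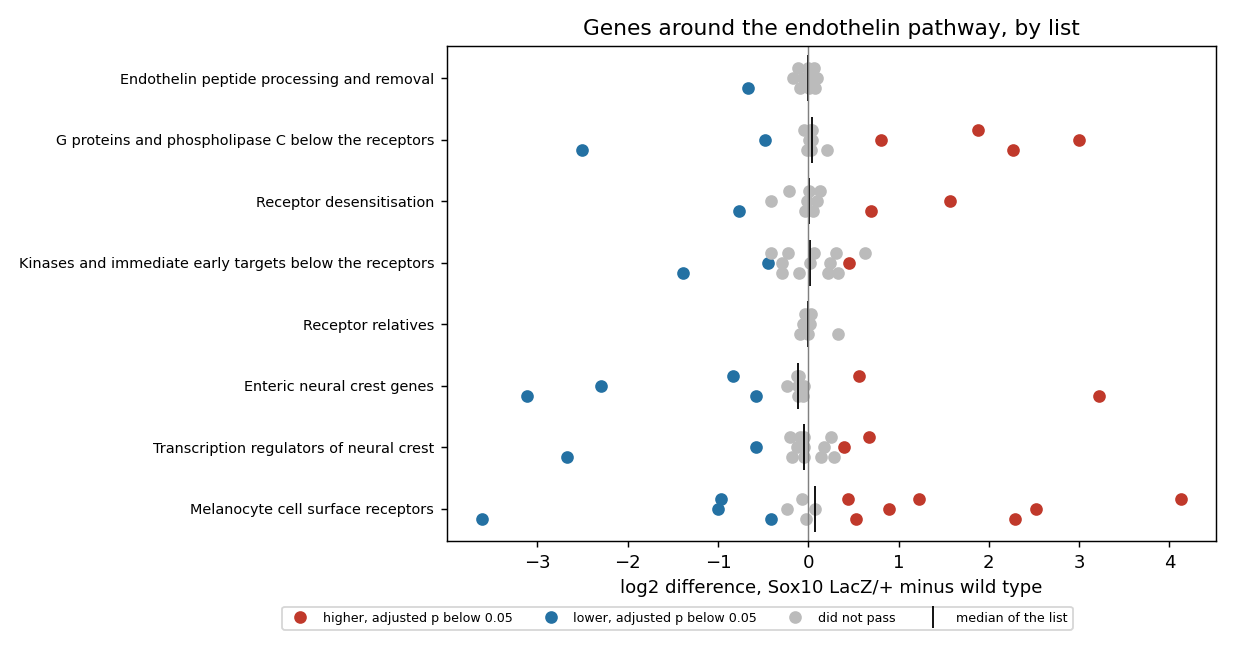
Log2 difference, Sox10 LacZ/+ minus wild type, for each measured gene of 8 lists around the endothelin pathway; coloured points passed the test, grey points did not, and black ticks are list medians. Medians lie close to 0 in each list, and the genes that passed lie on both sides of 0 in 6 of the lists.

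Genes that, like Ednrb and Edn3, are known from the development of the enteric nervous system moved both ways. The 13 measured genes held 2 that rose, 4 that fell and 7 that did not pass (46.2% passing against 13.4% of all genes). Their median difference was -0.12. Nrg1, a ligand gene of ErbB receptors, read 8.49, 8.60 and 8.53 on the Sox10 LacZ/+ arrays, against 5.30, 5.46 and 5.19 on the wild-type arrays (difference 3.22, adjusted p 2.52e-07). The semaphorin gene Sema3c read 8.40, 8.17 and 8.21 on the Sox10 LacZ/+ arrays, against 11.54, 11.01 and 11.57 on the wild-type arrays (difference -3.12, adjusted p 6.08e-06). The adhesion gene L1cam and the neurturin receptor gene Gfra2 differed by -2.30 and -0.84. In the wild type Nrg1 lay inside the olfactory receptor range, above 92.6% of those genes, so the size of its rise depends on the background, and Gfra2 lay inside that range in the Sox10 LacZ/+ line. Gdnf fell (4.06 in the Sox10 LacZ/+ line and 4.64 in the wild type) and Sema3d rose (5.33 and 4.77). Both genes lay inside the olfactory receptor range in both lines. Ret, the gene of the GDNF receptor kinase, differed by -0.23 and did not pass (adjusted p 0.0966). Of this list 4 to 6 genes passed across all 6 arrays and with single arrays left out, and 1 was higher with any array left out other than Sox10 LacZ/+ replicate 3.

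Among 15 measured transcription regulators of the neural crest, 2 rose, 2 fell and 11 did not pass (26.7% passing against 13.4% of all genes). Their median difference was -0.047. Mitf, the melanocyte master regulator gene, read 11.53, 11.56 and 11.53 on the Sox10 LacZ/+ arrays, against 10.87, 10.92 and 10.81 on the wild-type arrays (difference 0.67, adjusted p 0.000439). Sox6 had a difference of -2.67 (adjusted p 1.07e-05), Sox5 of 0.39 (adjusted p 0.00993) and Foxd3, a regulator gene of neural crest progenitors, of -0.58 (adjusted p 0.0176). Foxd3 lost its call without any array other than wild-type replicate 2 (adjusted p up to 0.0779), and Sox5 without Sox10 LacZ/+ replicate 1 (0.0513); 2 of the list passed without that array. The jaw genes Dlx5 and Dlx6, known targets of endothelin signalling through Ednra, differed by -0.047 and -0.045 and did not pass (adjusted p 0.758 and 0.914). Hand2, another such target, differed by -0.12 (adjusted p 0.489). The mean signals of Dlx5, Dlx6 and Hand2 lay inside the olfactory receptor range in both lines, where a change is hard to see. Whether signalling through Ednra differed between the lines was not tested.

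Ednrb was set beside other receptors of melanocytes, 15 of which were measured. Of these, 7 rose, 4 fell and 4 did not pass (73.3% passing against 13.4% of all genes, median difference 0.078). The thrombin receptor gene F2r, which like Ednrb encodes a receptor coupled to Gq, read 12.47, 12.37 and 12.40 on the Sox10 LacZ/+ arrays, against 8.08, 8.71 and 8.08 on the wild-type arrays (difference 4.12, adjusted p 1.78e-06). The neurotrophin receptor gene Ngfr read 6.44, 6.45 and 6.47 on the Sox10 LacZ/+ arrays, against 10.19, 10.09 and 9.91 on the wild-type arrays (difference -3.61, adjusted p 1.67e-07). The stem cell factor receptor gene Kit was 10.87 to 10.93 on the Sox10 LacZ/+ arrays, against 8.41, 9.32 and 8.10 on the wild-type arrays. In F2r and Kit, wild-type replicate 2 was the high wild-type array, and the lines stayed apart. The growth factor receptor gene Fgfr2 had a difference of 2.52 (SE 0.57, adjusted p 0.0232). It was not called without any array other than wild-type replicate 2 (adjusted p up to 0.0958), and the difference was 3.28 without wild-type replicate 2, which read 8.77 against 6.87 and 6.10 on the other wild-type arrays. With single arrays left out, 8 to 11 of this list passed.

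Over the 6 arrays, 5 genes had values closest to those of Ednrb once each gene was centred on its own mean. Unnamed gene models (Gm numbers and Rik clones) were left out of this ranking. The root mean square distance to Ednrb was 0.16 for Matn2, 0.23 for Thbs2, 0.26 for Tfpi, 0.27 for Cadm4 and 0.27 for Timp1 (log2 units). Matn2, a matrilin gene on chromosome 15, read 6.81, 6.79 and 6.66 on the Sox10 LacZ/+ arrays, against 10.65, 9.84 and 10.79 on the wild-type arrays. Like Ednrb, it was lowest in its line on wild-type replicate 2. Tfpi, which encodes an inhibitor of the tissue factor pathway of coagulation, read 6.02, 5.51 and 5.91 on the Sox10 LacZ/+ arrays, against 9.33, 9.18 and 9.40 on the wild-type arrays. These genes were picked for their likeness, so no test applies, and with 2 lines the likeness rests mainly on the step between them. None shares a chromosome with Ednrb: they lie on chromosomes 15, 17, 2, 7 and X.

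**Figure D4:**
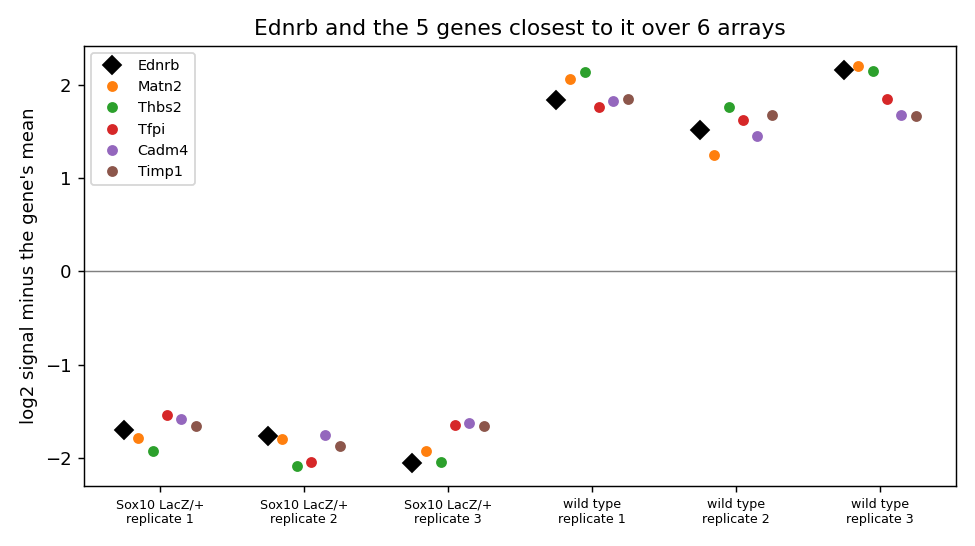
Log2 signal minus the gene's mean over 6 arrays, for Ednrb (black diamonds) and the 5 genes closest to it, unnamed gene models left out (coloured dots), by array. The 6 genes share one step between the lines, and Ednrb, Matn2, Thbs2, Tfpi and Cadm4 have their lowest wild-type value on replicate 2.

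The genes next to Ednrb and Edn1 were examined after the values of both were seen, 3 measured genes on each side. Around Ednrb, the differences ran between -0.12 and 0.31, and 0 of 6 passed by limma. Pou4f1, a transcription factor gene of sensory neurons, had 5.39 in the Sox10 LacZ/+ line and 5.07 in the wild type (difference 0.31, adjusted p 0.167). Slain1, a microtubule protein gene, differed by 0.095 (adjusted p 0.726). Around Edn1, 3 of 6 passed, in both directions, where 13.4% of all genes passed. Hivep1, a zinc finger protein gene, had 8.37 in the Sox10 LacZ/+ line and 7.99 in the wild type (difference 0.38, adjusted p 0.0157), and was not called without wild-type replicate 1 or any Sox10 LacZ/+ array (adjusted p up to 0.0741). Phactr1, an actin and phosphatase regulator gene, had 6.48 and 7.41 in the Sox10 LacZ/+ and wild-type lines (difference -0.93, adjusted p 0.000381). Gfod1 differed by -1.11 (adjusted p 0.00133).

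**Figure D5:**
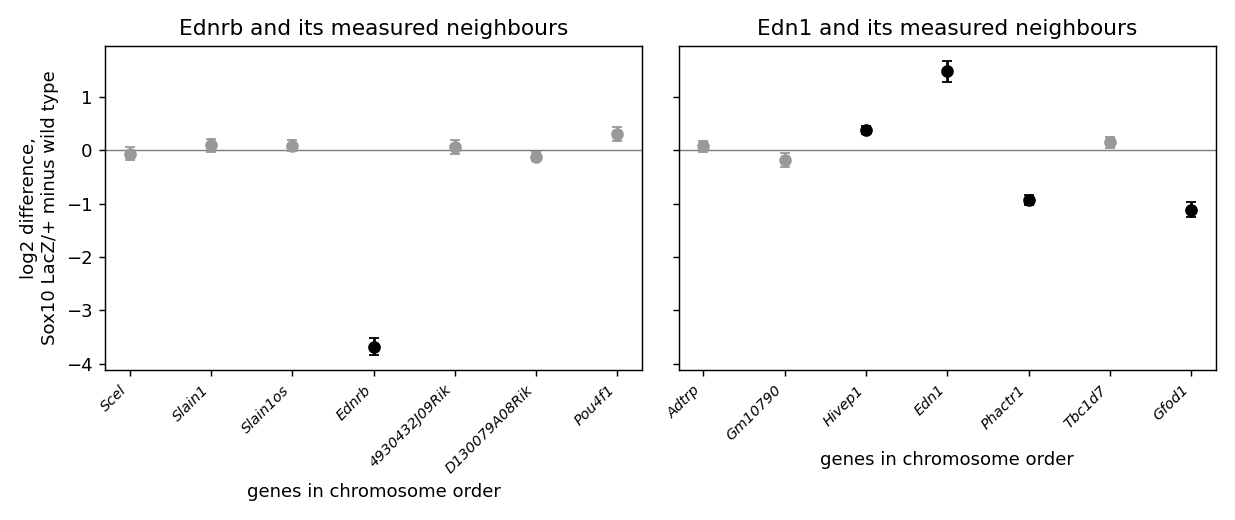
Log2 difference, Sox10 LacZ/+ minus wild type, with standard errors, for Ednrb and Edn1 and the 3 measured genes on each side in chromosome order; black points passed. Ednrb lies at -3.68 among neighbours between -0.12 and 0.31, while Edn1 lies between neighbours of both signs.

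Cell types that express endothelin genes were followed through their markers. Of endothelial markers 9.09% passed and of keratinocyte markers 0%, against 13.4% of all genes. Of 11 endothelial markers, 1 rose (Vwf, a clotting protein gene, 5.94 in the Sox10 LacZ/+ line and 5.56 in the wild type, adjusted p 0.0194) and 10 did not pass, among them the defining genes Pecam1 and Cdh5 (differences 0.14 and 0.23). Their mean signal was 5.03 to 5.10 on the Sox10 LacZ/+ arrays and 4.96 to 5.08 on the wild-type arrays. Of the 11, 3 lay above the olfactory receptor range in the Sox10 LacZ/+ line (95th percentile 5.63) and 0 in the wild type (5.73). Pecam1 had a mean of 5.68 in the wild type, between these cuts, so the count of 0 depends on the cut. Vwf was not called without Sox10 LacZ/+ replicate 2 or 3 or wild-type replicate 1 (adjusted p up to 0.0923). Of 9 keratinocyte markers 0 passed by limma, 1 higher and 2 lower having an unadjusted p below 0.05, and the means were 6.24 to 6.36 on the Sox10 LacZ/+ arrays and 6.29 to 6.47 on the wild-type arrays. The keratinocyte genes with the highest signal, Itga6 and Sfn, differed by -0.48 and -0.061. The call for Itga6 (adjusted p 0.0632) turned on the setting: 5 of 16 alternatives called it lower, and the adjusted p ranged over 0.000835 to 0.188. The lowest came from leaving out wild-type replicate 2, where the difference was -0.65. Leaving out wild-type replicate 2 gave 1 higher and 1 lower marker, and without wild-type replicate 1, 1 was lower.

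Smooth muscle and pericyte markers, from cells known for Ednra, were measured beside Edn1: 4 of 11 rose and 7 did not pass (median difference 0.14), with means of 7.29 to 7.43 on the Sox10 LacZ/+ arrays and 6.32 to 6.42 on the wild-type arrays. Acta2 rose by 5.34, Pdgfrb by 4.08, Tagln by 0.94 and Cnn1 by 0.44, whereas Myh11 and Des, defining genes of muscle, differed by -0.058 and 0.14 and did not pass. Without Sox10 LacZ/+ replicate 1 Cnn1 was not called (adjusted p 0.0528). Fibroblast markers rose in 4 of 11 (Dcn by 5.92, Pdgfrb, Fbln1 by 3.18 and Col1a2 by 1.24, or 1.87 with the mean of its 2 probe sets), with means of 7.08 to 7.14 on the Sox10 LacZ/+ arrays and 5.77 to 5.86 on the wild-type arrays; Col1a1, Col3a1 and Lum did not pass. Dcn in the wild type lay inside the olfactory receptor range, above 88.2% of those genes, as did Vwf, Cnn1 and Fcer1g there and S100b in the Sox10 LacZ/+ line, so the sizes of these differences depend on the background. Schwann cell markers fell beside Ednrb in 3 of 7 (Gjc3, S100b and Pmp22), with means of 6.58 to 6.73 on the Sox10 LacZ/+ arrays and 7.94 to 8.24 on the wild-type arrays. Of these, 2 passed with any array other than wild-type replicate 2 left out and 4 without that array, Pmp22 being the one lost. Leukocyte markers rose in 2 of 9 (Cd68 and Fcer1g). The 9 had means of 5.37 to 5.43 on the Sox10 LacZ/+ arrays and 5.27 to 5.34 on the wild-type arrays. Fcer1g was not called without wild-type replicate 1 or any Sox10 LacZ/+ array (adjusted p up to 0.143). Ptprc, Csf1r, Adgre1, Itgam and Cd52 differed by 0.097, -0.042, -0.083, 0.0046 and -0.012 and did not pass. Their mean signals lay inside the olfactory receptor range in both lines, where a change is hard to see. Cd3e and Lyz2 differed by -0.35 and -0.42 and did not pass either (adjusted p 0.0517 and 0.340). Once wild-type replicate 2 was dropped, 1 leukocyte marker was called lower. Among the 10 melanocyte markers, 1 rose (Mitf) and 4 fell (Tyr, Gpr143, Oca2 and Dct), with means of 10.89 to 10.94 on the Sox10 LacZ/+ arrays and 11.20 to 11.47 on the wild-type arrays. Leaving out wild-type replicate 2 gave 3 higher and 4 lower melanocyte markers. With every array, 36.4% of smooth muscle and pericyte markers and 36.4% of fibroblast markers passed. The share was 42.9% for Schwann cells, 22.2% for leukocytes and 50% for melanocytes, against 13.4% of all genes. The part of these markers in the endothelin results was not tested.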

How the data were processed

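The authors' deposited values are log2 signals, 1 per probe set, made with RMA per the submitters' processing notes, which also name Partek. Their versions and settings, and what Partek did, were not stated there. Values were used without further scaling. No pair of arrays was identical (0 pairs). Of 41345 probe sets, 23521 had exactly 1 gene symbol and were used, 1814 had several symbols and 16010 had no entry in the annotation. The probe set with the highest mean over all 6 arrays stood for a gene, leaving 22180 genes. The number of arrays limits the precision.

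The comparison used limma 3.58.1 (functions lmFit and eBayes, R 4.3.3, 2-sided, 7.87 total degrees of freedom), as Sox10 LacZ/+ minus wild type, with Benjamini-Hochberg adjustment over all genes, tested on simulated data. Members and lists were chosen with earlier results of these data known. Named by rule were all members, Sox10, Cdkn2a, the 5 genes most like Ednrb and up to 4 passing genes of each list by size. If none of a list passed, the 2 brightest were named. The genes most like Ednrb were ranked without unnamed gene models. Some further genes are mentioned outside this rule. Cdkn2a differed by -0.091 (adjusted p 0.61). The labels do not say that a replicate number is shared between lines, so the main fit used no block. Deviations from the line mean had r across genes of 0.0074, 0.016 and -0.0039 for arrays of the same number. With 3 arrays a line, these values cannot settle whether arrays were paired. Positions and promoter windows are from RefSeq, build GRCm38.p6.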

Additional observations from a re-analysis of the deposited data

How the results depend on the processing

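Ednrb and Edn1 passed in their direction in each of the 16 alternatives: 2 scalings, 2 filters on dim genes, 2 ways with probe sets, 3 ways with variance or array weights, the replicate number as a block, and the leaving out of each array. Not all of these could have changed the result. Each gene has 1 probe set, so the 2 ways with probe sets could not alter its difference. The 2 filters left the differences at -3.68 and 1.48. The filter at the olfactory receptor 95th percentile (5.69) kept each gene only through the line where it is high. Over all alternatives Ednrb ranged from -3.84 to -3.52 and Edn1 from 1.24 to 1.63. With the replicate block they were -3.68 (adjusted p 3.19e-05) and 1.48 (adjusted p 0.000958). Of the genes named by rule, only Fcer1g lost its call with the block (adjusted p 0.0708). Edn3 changed sign with centring (0.015), quantile normalization (0.011) and single arrays left out (-0.077 to 0.047), and Ece1 with single arrays left out (-0.012 to 0.21); neither passed in any alternative. Genes passing ranged from 1768 to 4222 of all genes with single arrays left out, against 2967 with every array.

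Of 45 other genes named by rule that passed, 35 kept their call in each of the 16 alternatives. Gfra2 kept it in the 15 that measured it, and 9 lost it in some. Genes mentioned outside the rule, such as Hivep1, Plcb3 and Itpr2, are not among the 45. Itga6 gained a call in 5 (adjusted p down to 0.000835). With the mean of probe sets, Itpr3, Rgs2 and Col1a2 moved to -1.60, 0.91 and 1.87. Among genes that did not pass, signs turned for Ntsr2 with centring (0.023) and with single arrays left out (-0.043 to 0.032), for Sfn (-0.21 to 0.087) and Gpr37 (-0.19 to 0.61) with single arrays left out, and for Pcsk6 with array weights (-0.62) and single arrays left out (-1.17 to 0.72). The cause was not tested. The comparison of Ednrb with Ednra was not run. Low signals in the Sox10 LacZ/+ line limit the size of the Ednrb fall.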
